A study of Homo sapiens with 2 samples.

Results

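The genes examined were 7 tied to pluripotency, looked up by symbol in the 2 deposited gene tables: NANOG, NANOGNB, POU5F1, POU5F1B, SOX2, LIN28B and SALL4. They are 7 of the 19316 genes listed in either table. The libraries were poly(A) RNA of SNU449 cells, a liver cancer line kept in culture, on day 7 of lentiviral shRNA expression. One library carried an shRNA against FZD2, a frizzled receptor for Wnt ligands, and 1 carried the negative control shRNA, both from the same unedited parent line. The labels name no hairpin sequence, clone or second hairpin, and the growth protocol calls the cells prostate where the cell type label says liver. With 1 library in each group there was no replicate error and no test of the conditions, so every difference below is between 2 libraries.

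POU5F1 (also called OCT4), SOX2 and NANOG encode transcription factors that together hold embryonic stem cells in an undifferentiated state. POU5F1 and SOX2 bind DNA side by side, and NANOG is among the genes they are known to activate. SALL4 is a zinc finger factor that recruits the NuRD chromatin complex, and LIN28B is an RNA-binding protein that blocks maturation of the let-7 microRNAs. NANOGNB is a homeobox gene beside NANOG. Most adult tissues keep these genes low, while some tumours express them. Several of them left retrotransposed copies elsewhere in the genome, so a short read from their coding sequence can fit more than 1 place.

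A pair of stretches of POU5F1 coding sequence shows what such a read would meet. The lines give POU5F1 (chromosome 6) and its pseudogenes POU5F1P3 (chromosome 12) and POU5F1P4 (chromosome 1), 5′ to 3′, from GENCODE release 29 transcripts on GRCh38, and capitals mark bases that differ from POU5F1. The first stretch, bases 122 to 201 of transcript POU5F1-201, was the first 80-base coding window with no difference in either copy.
POU5F1: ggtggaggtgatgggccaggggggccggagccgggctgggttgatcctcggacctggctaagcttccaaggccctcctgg
POU5F1P3: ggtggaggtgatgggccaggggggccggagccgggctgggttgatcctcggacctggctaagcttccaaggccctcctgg
POU5F1P4: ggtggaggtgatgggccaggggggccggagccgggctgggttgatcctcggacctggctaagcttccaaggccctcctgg
The second stretch, bases 241 to 320, had the most.
POU5F1: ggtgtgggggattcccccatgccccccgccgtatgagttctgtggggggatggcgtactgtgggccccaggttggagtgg
POU5F1P3: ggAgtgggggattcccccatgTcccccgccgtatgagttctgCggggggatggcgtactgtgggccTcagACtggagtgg
POU5F1P4: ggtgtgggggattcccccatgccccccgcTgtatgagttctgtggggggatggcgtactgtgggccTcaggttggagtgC
All 3 sequences were identical in the first stretch, and even the second held only 6 differences in POU5F1P3 and 3 in POU5F1P4. Over the coding bases that could be aligned, POU5F1P3 matched POU5F1 at 98.1% and POU5F1P4 at 97.2%.

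NANOG had copies as close. Shown in the same way are NANOG and NANOGP1, both on chromosome 12, and NANOGP8 on chromosome 15, over bases 243 to 322 of transcript NANOG-201, the coding window with the most differences.
NANOG: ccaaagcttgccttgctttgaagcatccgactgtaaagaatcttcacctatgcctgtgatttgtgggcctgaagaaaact
NANOGP8: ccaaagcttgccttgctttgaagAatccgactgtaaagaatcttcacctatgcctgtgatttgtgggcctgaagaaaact
NANOGP1: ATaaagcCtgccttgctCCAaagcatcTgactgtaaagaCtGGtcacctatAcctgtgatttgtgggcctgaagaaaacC
NANOGP8 differed from NANOG at 1 base in that window and matched it at 99.5% of 918 coding bases, whereas NANOGP1 differed at 12 and matched at 97.6% of 915.

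NANOGNB carried a different kind of shared sequence, an Alu-like stretch. Alu repeats are scattered through human transcripts and descend from 7SL RNA, so such stretches were found as matches to the 7SL RNA gene RN7SL1. Alignments of at least 50 bases at 90% identity or more joined single bases of NANOGNB-201 to up to 2094 other genes.

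The members differed in how much of their sequence other genes share. Of all 50-base windows in POU5F1-201, 63.4% occurred exactly in a transcript of another gene, namely POU5F1B, POU5F1P3 or POU5F1P4. For POU5F1-206 the share was 39.4%, over 161 other genes, and for POU5F1-207 it was 59.7%, over 129. In NANOG-202, a transcript of 870 bases of coding sequence alone, the share was 84.5%, spread over 9 other genes that include 8 NANOG pseudogenes. In NANOG-201, of 5183 bases, it was 16.9%, over 129 other genes. In NANOGNB-201 it was 4.31%, but over 265 other genes. SOX2-201 stood at 2.03%, shared with SOX1, SOX21 and AC090192.1, and SALL4-201 at 0.717%. The sources used here give no read length, so 50 bases is a yardstick and not the study's read.

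Alu-like sequence, found as matches to RN7SL1, lay in transcripts of NANOG, NANOGNB, POU5F1 and SALL4 and in none matched to SOX2, POU5F1B or LIN28B. POU5F1 was split by transcript. POU5F1-201, which encodes the full-length factor, held none, whereas POU5F1-206 held 196 Alu-like bases between positions 513 and 791, before its coding sequence, and POU5F1-207 held 98. In SALL4-201 the Alu-like matches began at base 3520, past the end of the coding sequence at 3274. The deposited length for SALL4 was 3515 bases, shorter than the 5208 bases of SALL4-201, so the transcript counted may not have held them.

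**Figure D1:**
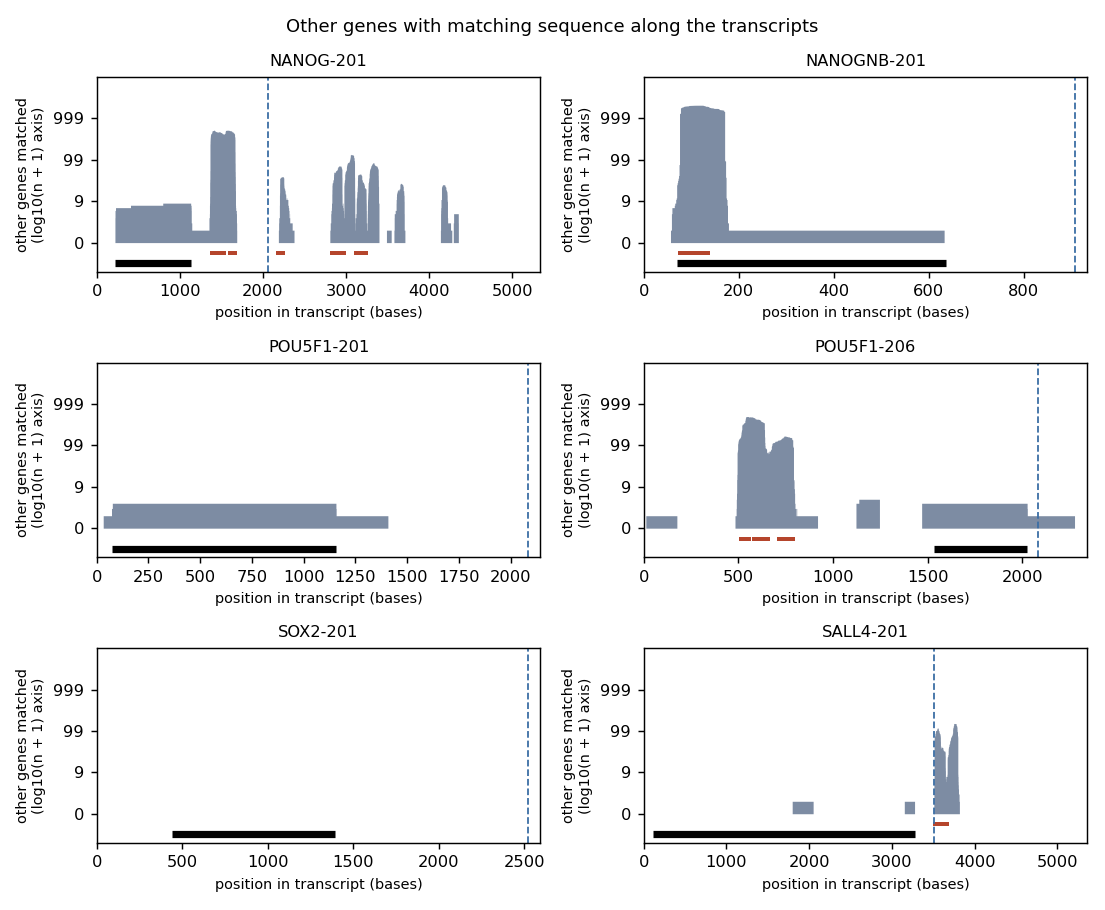
Each panel follows 1 transcript from its first base; grey height is the number of other genes aligned at each base (at least 50 bases at 90% identity, on a log10(n + 1) axis), red marks Alu-like matches, black the coding sequence, and the dashed line the gene length deposited for the control library. NANOG-201, NANOGNB-201, POU5F1-206 and SALL4-201 rise over their Alu-like parts, coding sequence of NANOG and POU5F1 meets a handful of copies, and SOX2-201 stays at 0.

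The deposited tables gave a level for 6 of the 7 members, of which 5 were in both. Levels are FPKM, fragments per unit of gene length and of depth, a scaling made by the authors. A gene is called measured at 1 FPKM or more in at least 1 library, and differences are log2 ratios on FPKM + 1 with the control as the denominator, which understate differences of low genes. A gene is called higher or lower at 2-fold or more on that scale. NANOGNB and SALL4 reached 1 FPKM in the FZD2 shRNA library alone, so both had to be higher there. Of the 5 measured members 3 were higher in the FZD2 shRNA library and 0 were lower. Among all 14377 measured genes 15.2% were higher and 7.41% lower. The members' median log2 ratio was 1.95, against 0.00 over all measured genes (-0.0042 before rounding).

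The libraries held 8234592 (FZD2 shRNA) and 8436870 (control) expected counts, with 18303 and 18336 genes listed. The targeted transcript, FZD2, stood at 15.76 FPKM with its own shRNA and 59.45 FPKM with control shRNA, so the direction matched the labels. In bulk RNA, a difference in how many cells express a gene and a difference in RNA per cell cannot be told apart.

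POU5F1 was the most abundant member. It stood at 39.96 FPKM under FZD2 shRNA and 9.61 FPKM under control shRNA, a log2 ratio of 1.95. Its expected counts, the authors' estimates of reads per gene, were 664.97 and 169.77, so neither was whole. Scaled to the library totals, the count ratio was 4.01-fold (95% interval 3.38 to 4.77). Count ratios and their intervals, here and below, use counts rounded to whole numbers. The interval is the exact conditional binomial interval, and covers counting error only, with reads taken as independent molecules.

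The listed copies of POU5F1 were assigned few expected counts. POU5F1B, a protein-coding retrocopy, was listed in the control library alone, at 1.24 expected counts and 0.09 FPKM. POU5F1P3 was at 0.29 against 1.59 expected counts and POU5F1P5 was listed in the FZD2 shRNA library alone, at 1.01. All of these lay under 3 counts, so no fold is given for them, and POU5F1P4 was listed in neither library. Pooled, POU5F1 and its 3 listed copies had 666.27 and 172.6 counts, of which the copies made up 0.195% and 1.64%. With so few counts added, the pooled count log2 ratio, 1.98 (1.74 to 2.23), could hardly differ from that of POU5F1 alone (interval 1.76 to 2.25). Whether reads were rightly divided between POU5F1 and its copies was not tested.

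The deposited length of POU5F1 was 2015.47 bases under FZD2 shRNA and 2081.17 under control shRNA, a ratio of 0.968, so the FPKM and count ratios hardly differed through length. Both lengths exceed the 1420 bases of POU5F1-201 and the 1236 of POU5F1-207, and lie below the 2276 of POU5F1-206. These are GENCODE lengths, and the RefSeq models counted by the authors may differ from them. Which transcript the reads came from was not measured, and the part of Alu-like sequence in the POU5F1 ratio was not tested.

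NANOG stood at 14.83 FPKM under FZD2 shRNA and 2.35 FPKM under control shRNA, a log2 ratio of 2.24. Its expected count was whole in the FZD2 shRNA library, at 254, and not whole in the control, at 40.94. The count ratio was 6.35-fold (4.55 to 9.06). The length was 2073.54 against 2055 bases, shorter in both than the 5183 bases of NANOG-201. Of 11 NANOG pseudogenes in the RefSeq table, 0 were listed in either library, NANOGP8 and NANOGP1 among them. The tables leave out genes at 0, so a gene that was counted and empty cannot be told from one that was not in the authors' annotation.

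NANOGNB had the largest ratio among the members. Its level was 17.86 FPKM under FZD2 shRNA and 0.72 FPKM under control shRNA, a log2 ratio of 3.45 that only 0.0765% of measured genes exceeded. Its expected counts were 130.71 and 5.39, both not whole, over a length of 907 bases in each library. The count ratio, on rounded counts, was 26.8-fold, with an interval of 11.2 to 84.0 that is wide because the control count was so small. Rounding mattered for the same reason: the count log2 ratio was 4.75, and 4.48 with counts rounded up. Its Alu-like stretch lies in coding sequence, and the part of that stretch in the ratio was not tested.

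SOX2 had the smallest count ratio of the 5 measured members. Scored over whole alignments, its transcript matched no other gene at 90% identity, apart from the short exact stretches shared with SOX1, SOX21 and AC090192.1 given above. The levels were 16.14 FPKM under FZD2 shRNA and 9 FPKM under control shRNA, a log2 ratio of 0.78, under the 2-fold limit. Its counts, 337 and 193, were whole to a tolerance of 0.001, and the length was 2520 bases in both. The count ratio was 1.79-fold (1.49 to 2.15). SOX2-OT, the noncoding gene in whose intron SOX2 lies, was at 2.77 and 4.42 expected counts.

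SALL4 was low in both libraries. FZD2 shRNA gave 1.06 FPKM and control shRNA 0.23 FPKM, and its log2 ratio of 0.74 did not reach 2-fold. The expected counts were 31.02 and 7.05, not whole, over 3515 bases in each library. Their ratio was 4.54-fold (1.96 to 12.2), and the call turned on the scale: the log2 ratio was 1.81 with a pseudocount of 0.1 FPKM and 1.38 in CPM, counts scaled to the library total. LIN28B was listed in neither library, and neither was LIN28B-AS1. The lowest FPKM listed for any gene was 0.01.

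**Figure D2:**
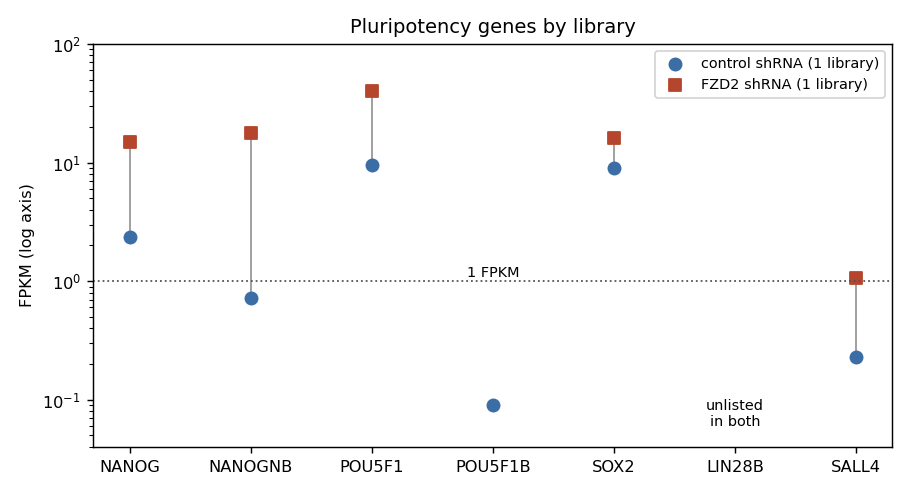
FPKM (log axis) of each gene in the FZD2 shRNA library (red squares) and the control library (blue circles), 1 library each, with a dotted line at 1 FPKM. The FZD2 shRNA value is the higher for all 5 genes listed in both, from 1.06 against 0.23 FPKM for SALL4 to 39.96 against 9.61 for POU5F1; POU5F1B has a control value only and LIN28B none.

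Whole and split counts divided the members 1 to 4. The 3 genes called higher, and SALL4, had a count that was not whole in at least 1 library, and SOX2 had 2 whole counts. Across the libraries, 8154 measured genes had whole counts in both and 6223 did not. Of those that did not, 29.7% were higher and 3.71% lower, and of those with whole counts 4.19% were higher and 10.2% lower. Genes with a count that was not whole and Alu-like sequence were higher in 35.8% and lower in 1.62% of 3713 cases (median log2 ratio 0.69). Those with such a count and no Alu-like sequence were higher in 15.2% and lower in 7.34% of 2098 (median 0.06). With whole counts, 4.2% were higher and 10.3% lower of 7506 genes without Alu-like sequence, the class of SOX2, and 3.45% higher and 7.3% lower of 493 with it. Of the 4 members with Alu-like sequence and a count that was not whole, 3 were higher. This stands beside a class in which 35.8% of genes were, and is not read as particular to them. NANOGNB and SALL4 entered through the FZD2 shRNA library alone, so both had to be higher there. The SALL4 transcript counted may not have held its Alu-like sequence.

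Placed among all genes with the same kind of count, with or without Alu-like sequence, the members spread widely. For counts that were not whole this takes in the 2098 genes without Alu-like sequence (median 0.06). Ranks within the class with it (median 0.69) were not taken. Among measured genes with a count that was not whole, 0.177% had a higher ratio than NANOGNB, 3.00% than NANOG, 6.44% than POU5F1 and 39.4% than SALL4. Among genes with whole counts, 7.21% had a higher ratio than SOX2, while the median gene of that class was at a log2 ratio of -0.25.

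**Figure D3:**
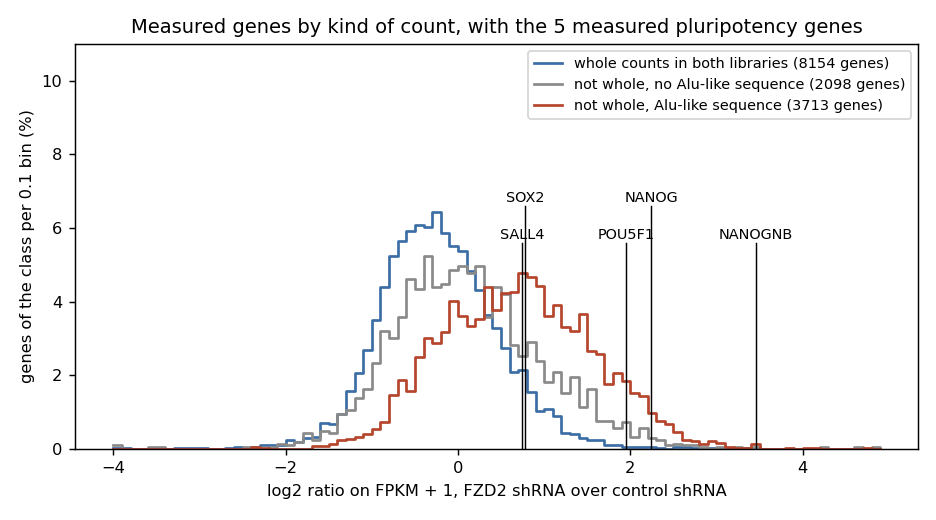
Distribution of log2 ratios (FPKM + 1, FZD2 shRNA over control) in bins of 0.1 for measured genes with whole counts (blue), with a count that is not whole and no Alu-like sequence (grey) or with it (red), as a percent of each class, with values beyond the axis put in its end bins and vertical lines at the 5 measured pluripotency genes. The median is 0.69 in the red class and -0.25 in the blue, and all 5 marked genes lie above both, SALL4 (0.74) and SOX2 (0.78, of the blue class) narrowly. NANOGNB and SALL4 reached 1 FPKM in the FZD2 shRNA library alone, so both had to lie above 0.

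In the wider pluripotency network, genes with either kind of count were among those called higher. Of 28 network genes 21 were listed and 11 measured, of which 6 were higher and 0 lower (median log2 ratio 1.00), beside 15.2% higher and 7.41% lower among all measured genes. TDGF1, DPPA4 and PRDM14 reached 1 FPKM in the FZD2 shRNA library alone and so had to be higher there, and KLF4 reached it in the control alone, so these counts and the median are a description only. All 8 measured genes with a count that was not whole had Alu-like sequence, and 5 of them were higher, in a class where 35.8% of genes were. L1TD1, an RNA-binding protein of embryonic stem cells, was at 13.1 against 2.2 FPKM (log2 ratio 2.14), and ZFP42, the zinc finger factor REX1, at 12.46 against 2.68 (1.87). TDGF1, the Nodal co-receptor Cripto, was at 3.18 against 0.53 FPKM (1.45). LIN28A, the paralogue of the unlisted LIN28B, was at 4.73 against 1.28 FPKM (1.33). DPPA4 sat exactly at the 2-fold limit, with 1.64 against 0.32 FPKM. NR5A2, an orphan nuclear receptor, went the other way, at 3.42 against 6.26 FPKM (-0.72).

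The 3 measured network genes with whole counts had no Alu-like sequence and mixed values. POLR3G, an RNA polymerase III subunit abundant in stem cells, was higher, with 14.9 against 6.06 FPKM (1.17) on 407 and 170 reads. DNMT3B, a de novo DNA methyltransferase, was at 2.14 against 4.04 FPKM (-0.68), and the reprogramming factor KLF4 at 0.54 against 1.66 (-0.79). Their median was -0.68. Among the network genes listed in neither library were DPPA3, DPPA5, UTF1, ESRRB, GDF3 and FGF4.

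**Figure D4:**
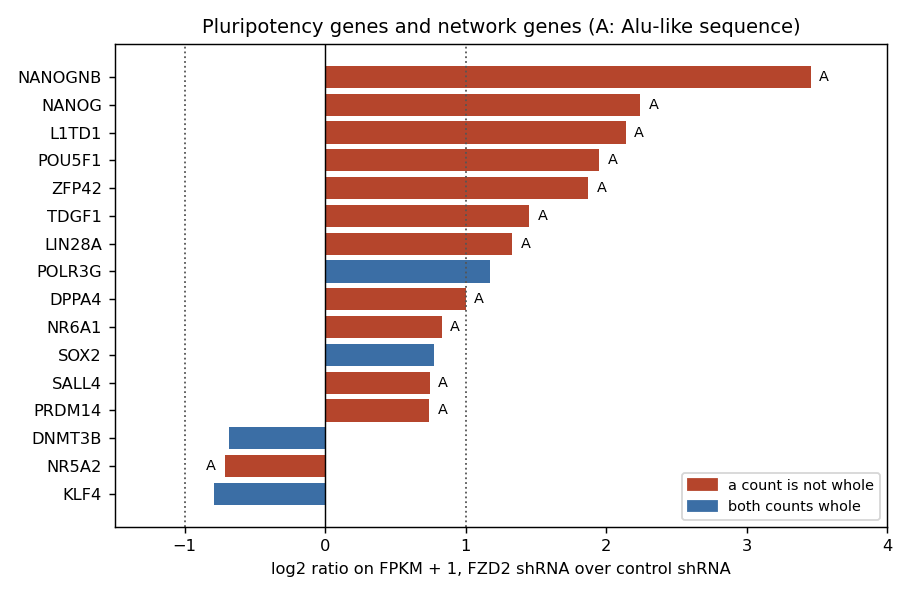
Log2 ratios (FPKM + 1, FZD2 shRNA over control) of the 5 measured pluripotency genes and 11 measured network genes; red bars have a count that is not whole, blue bars have 2 whole counts, A marks Alu-like sequence, and dotted lines mark 2-fold. Every red bar carries an A and no blue bar does; the blue bars run from -0.79 (KLF4) to 1.17 (POLR3G).

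Relatives and partners of the members had values in both directions. Of 10 listed SOX, SALL, POU and LIN28 family genes 6 were measured, and LIN28A alone was higher. Among all measured genes 15.2% were higher. LIN28A had counts that were not whole and Alu-like sequence, a class in which 35.8% were higher. POU2F2 was at 3.13 against 1.27 FPKM (0.86) and POU6F1 at 2.84 against 1.26 (0.76), while SALL2 was at 1.31 against 2.55 (-0.62). Of 13 NuRD genes, the complex that SALL4 recruits, 3 were lower and 0 higher, each of the 3 on whole counts. Among all measured genes 7.41% were lower, and among those with whole counts 10.2%. HDAC1, a histone deacetylase, was at 21.76 against 64.92 FPKM (-1.53). MTA1 was at 17.5 against 36.33 (-1.01), and RBBP7, a histone chaperone, at 60.82 against 123.44 (-1.01). MTA3 was at 6.29 against 12.02 (-0.84). In TPM, which scales to the sum over transcripts, 1 of the 13 was lower by 2-fold. Of 16 measured genes that process let-7 or are its targets, 0 were higher or lower. The largest difference among them was that of IGF2BP3, an mRNA-binding protein, at 15.34 against 25.59 FPKM (-0.70). DIS3L2, an exonuclease that degrades tailed pre-let-7, was at 7.07 against 4.25 (0.62), and DROSHA and DGCR8, the nuclear microRNA processor, were at 19.93 against 12.87 (0.59) and 5.27 against 8.21 (-0.55).

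NANOG and NANOGNB flank each other, and NANOGNB had the larger log2 ratio. The other listed genes flanking POU5F1, NANOG and NANOGNB had smaller log2 ratios on FPKM + 1 than those members. Beside POU5F1, TCF19 was at 13.14 against 10.76 FPKM (0.27) and CCHCR1 at 35.07 against 21.08 (0.71), both on whole counts. PSORS1C3, on the other side, was at 1.9 against 1.23 FPKM (0.38). Beside NANOGNB and NANOG, CLEC4C was at 1.15 against 0.25 FPKM (0.78, counts not whole), SLC2A14 was at 0.97 against 0.85, and DPPA3 was listed in neither library. The count ratio of CLEC4C, on 11.44 and 2.54 expected counts, was 3.76-fold (0.99 to 21.0).

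Sequence just before the start sites was compared for members in RefSeq's promoter table. The table held NANOG, NANOGNB, SOX2 and LIN28B. Searched on both strands were ATGCAAA, the core of the octamer that POU factors bind, CATTGT, a core bound by SOX factors, and the 2 joined with 1 free base between, as CATTGTNATGCAAA, which contains both. The 250 bases before the NANOG start, chr12:7789152-7789401 on the plus strand of GRCh38.p14, are printed with matches in capitals.
NANOG: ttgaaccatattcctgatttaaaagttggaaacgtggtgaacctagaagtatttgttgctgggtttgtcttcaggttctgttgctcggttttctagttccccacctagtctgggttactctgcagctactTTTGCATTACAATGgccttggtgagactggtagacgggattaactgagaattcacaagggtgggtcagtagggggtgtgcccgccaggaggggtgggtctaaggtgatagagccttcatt
The 250 bases before the SOX2 start, chr3:181711675-181711924 on the plus strand, hold an octamer core alone.
SOX2: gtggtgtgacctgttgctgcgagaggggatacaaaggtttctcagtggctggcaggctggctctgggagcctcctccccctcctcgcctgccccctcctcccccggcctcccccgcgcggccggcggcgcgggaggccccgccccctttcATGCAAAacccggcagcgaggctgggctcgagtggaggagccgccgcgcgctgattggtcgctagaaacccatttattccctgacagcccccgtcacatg
NANOG held the joined motif, beginning 120 bases before its start, and 3 of 35116 promoter windows of 300 bases (0.0085%) held it. The octamer core alone was in 4.46% of windows and the SOX core in 10.8%. The NANOGNB window held neither, and the first of the LIN28B windows held a SOX core. A match describes letters and not binding, and the part of these motifs in the members' ratios was not tested.

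Markers of other cell types gave no common direction. Summed FPKM was 38.5 against 35.3 for germ cell markers (FZD2 shRNA against control), 107 against 92.7 for hepatocyte markers, 9.24 against 10.2 for prostate markers and 321 against 409 for fibroblast markers. For leukocyte markers it was 74.8 against 15.6, nearly all from LYZ, whose counts were not whole and whose transcript held Alu-like sequence. Of 12 germ cell markers 3 were measured and 0 were higher or lower, beside 15.2% higher and 7.41% lower among all measured genes. DDX4 and DAZL were listed in neither library. Of the hepatocyte markers only FGB was measured, and ALB reached 0.05 FPKM in the FZD2 shRNA library and was unlisted in the control. KLK2, KLK3 and TMPRSS2 of the prostate list were listed in neither library. The part of other cells in the members' ratios was not tested.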

How the data were processed

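The files of 2 libraries were used, 1 per group. Per the file headers, each deposited table gives per gene an expected count (an unnormalized read estimate), a length and an FPKM. FPKM had been scaled to length and library size by the authors. Bowtie2, HISAT and hg19 are named, without roles, per the submitters' processing notes. For the counting program, annotation, strand and read length: not given in the sources used here. Gene identifiers were matched to symbols in the RefSeq table (GRCh38.p14), and 87 had none. Its coordinates were used only for the promoter sequences printed and to order the genes beside each member, because the files were built on hg19.

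The members, the 9 lists (115 entries) and the tests were chosen with earlier results of these data known. TDGF1 was matched through its RefSeq synonym. Genes unlisted in a library were set to 0 for ratios. The main measure was log2 on FPKM with a pseudocount of 1, with no further scaling. Named were all members, their listed copies, FZD2, the 2 RefSeq genes on each side of a member, up to 4 measured genes of each list by size of log2 ratio, and the 3 genes nearest each member. Other list genes named (NR5A2, KLF4, DNMT3B, DPPA4, POLR3G, the unlisted and marker genes) were chosen after their values were seen, to account for a list. Some genes the rule would name are given by count.

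Member transcripts were GENCODE release 29 transcripts matched by RefSeq accession. They were aligned with blastn 2.17.0 (an E-value limit of 1e-05, words of 20 bases, identity at least 90% over a whole alignment), and RN7SL1 was aligned with word size 11. Transcripts were found for 96.1% of measured genes. The interval was checked on simulated counts that were whole and independent, as the interval assumes. That check does not cover expected counts that are not whole or reads divided between genes. With totals of 8234592 and 8436870 expected counts, 3 counts are 3.64e-05% and 3.56e-05% of a library. Alternatives were pseudocounts of 0.1 and 5, TPM, CPM, TMM scaling (edgeR 4.0.16), median centring, other filters and size limits, and other rounding, totals and alignment limits. Python 3.11.15, NumPy 2.4.6, pandas 2.3.3, SciPy 1.17.1, Biopython 1.88, matplotlib 3.10.9 and R 4.3.3 were used. A list gene and a sequence are not reported here.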

Additional observations from a re-analysis of the deposited data

How the results depend on the processing

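No member's ratio changed direction under any alternative run, but none of these runs could readily have reversed one. A pseudocount cannot reverse a ratio, and the effects of rounding and scaling were small beside the members' differences. None of the runs reassigned reads between genes. With a pseudocount of 5 FPKM the log2 ratios were 1.43 for NANOG, 1.999 for NANOGNB and 1.62 for POU5F1. The number of members called higher was 5 at a 1.5-fold limit. It was 4 with a pseudocount of 0.1, in TPM, in CPM and with TMM scaling, the addition being SALL4. Counted after seeing the data, it was 0 among members with whole counts and 0 among those without Alu-like sequence, each of which leaves SOX2 alone. The network genes called higher numbered 2 with a pseudocount of 5, 3 with a filter of 5 FPKM, 1 at a 4-fold limit, 1 with whole counts and 1 without Alu-like sequence. Those called lower numbered 1 with a pseudocount of 0.1, in CPM and with TMM scaling, and 3 at a 1.5-fold limit. TPM moved the median of all measured genes by 0.14. For the other lists, 137 counts stayed within 1.5 times and 23 did not. Most of those that stayed were 0 in both the main run and the alternative. The SOX, SALL, POU and LIN28 family genes called higher numbered 1 in the main run and from 0 to 4 in the alternatives. Alignment limits mattered more: at 95% identity over 100 bases NANOG matched 10 other genes, POU5F1 19 and NANOGNB 0, and at 90% identity 718, 1536 and 32. Counting error bounds NANOGNB and SALL4 least well. No paired analysis was possible because each group holds 1 library, and for the same reason no library could be left out.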

Other observations

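The genes whose levels lay nearest to each member over the 2 libraries, by Euclidean distance on log2(FPKM + 1), were mostly genes with counts that were not whole. Nearest to NANOG were MS4A10 (14.67 against 2.38 FPKM, FZD2 shRNA against control), DBIL5P2 and FALEC. Nearest to POU5F1 were TSTD3 (40.36 against 9.49 FPKM), DDX51 and MPPE1. Nearest to NANOGNB was APOC1P1, at 22.64 against 1.19 FPKM, then C1orf210 and ZNF556. For SOX2 they were DCAF16, ALKBH4 and SBNO1, and for SALL4 PEX5L, ACTR3-AS1 and LINC02449, of which ACTR3-AS1 had whole counts in both libraries. With 2 libraries such likeness rests on 2 values per gene.

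More genes beside members had values near or past 2-fold. LINC01429, next to SALL4, was at 4.8 against 1.94 FPKM (log2 ratio 0.98), and POPDC1, beyond LIN28B, was at 2.98 against 0.75 (1.19). Both had counts that were not whole and Alu-like sequence, a class in which 35.8% of genes were higher, beside 15.2% of all measured genes. POPDC1 reached 1 FPKM in the FZD2 shRNA library alone, so it had to be higher there. ATP9A, on the other side of SALL4, was at 4.28 against 4.17 FPKM (0.03).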
